A study of Danio rerio with 4 samples.

Results

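A small class of 5hmC peaks was called in chromosome interiors after tet2/3 knockdown where the control list had no peak. These peaks, called unmatched here, are the intervals of the tet2/3 morpholino list on chromosomes 1 to 25 that share no base with any interval of the control list. They were chosen by the positions of the peaks called in both lists. Their midpoints lie at least 2 Mb from position 0 and from the last peak end of the chromosome over both lists, and chromosome 4 from 30 Mb was left out. The rule gave 5286 unmatched peaks among 65263 interior peaks of the tet2/3 morpholino list and 82703 peaks of that list in all. The other 59977 interior peaks share at least 1 bp with a control peak and are called matched. The 5286 are 8.10% (95% Wilson interval 7.89 to 8.31) of the interior list. That share is set by the rule, which used both lists, and is a description.

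The peaks come from zebrafish at 48 hours after fertilisation, with the tissue labelled embryo and an extraction protocol that speaks of head DNA. One group had received a tet2/3 double morpholino and the other a control morpholino, with 1 pull-down of 5hmC and 1 input per group. Morpholinos are antisense oligonucleotides that lower gene activity for a limited time and leave the gene itself in place. The sources used here state neither how many animals were pooled nor how far tet2 and tet3 were lowered. With 1 pull-down per group there is no replicate check, no test between groups was possible, and intervals cover counting error only.

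5-Hydroxymethylcytosine (5hmC) is the base that TET enzymes make when they oxidise 5-methylcytosine. It can persist as a mark of its own, often in gene bodies and at enhancers, or be an intermediate on the way to unmethylated cytosine. Tet2 and Tet3 are enzymes of this family, so lowering them is generally expected to reduce 5hmC, and the unmatched peaks are the part of the knockdown list that has no counterpart in the control list. Peaks were not assigned to genes, since the gene table at hand belongs to another assembly than the files (GRCz11), and no sequence is shown for the same reason.

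Unmatched peaks mostly lay a short way from a control peak, with a minority far out. The median distance to the nearest control peak was 1805 bp (95% interval of the median 1719 to 1890), with quartiles of 623 and 4203 bp. Of the 5286 peaks, 421 (7.96%) lay within 200 bp of a control peak, 1874 (35.5%) within 1 kb and 4176 (79.0%) within 5 kb. Beyond 10 kb lay 482 peaks (9.12%), and beyond 50 kb only 9. For matched peaks the nearest control peak that they did not overlap was taken instead. Its median distance was 1641 bp, with quartiles of 782 and 2760 bp. By these measures 7.96% of unmatched and 2.40% of matched peaks had such a control peak within 200 bp. None lay within 10 kb of 9.12% of unmatched and 2.60% of matched peaks. The measures are unlike, since the matched distance runs past the control peak overlapped, and 79.8% of matched peaks lay wholly inside one. The low matched share within 200 bp is thus tied to the measure and is a description.

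**Figure D1:**
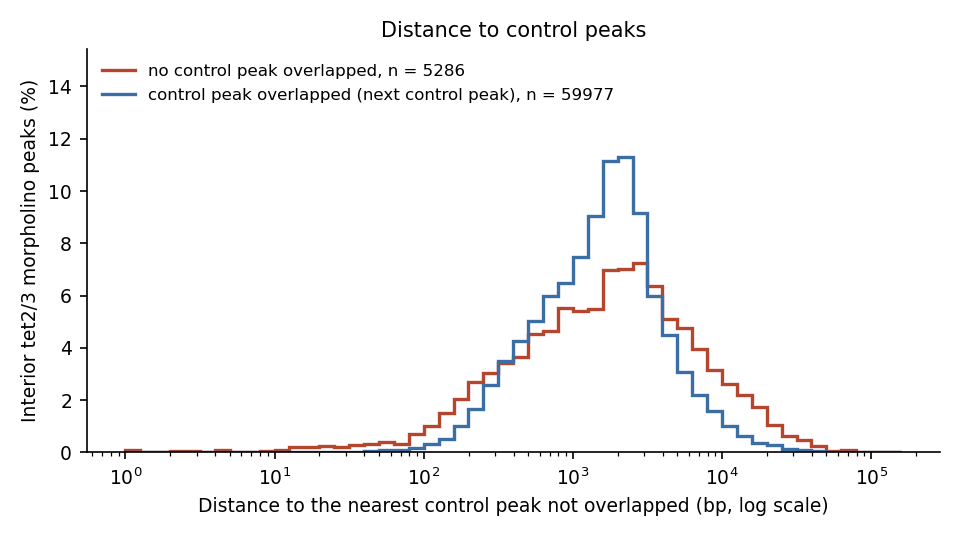
Histogram of the distance from each interior tet2/3 morpholino peak to the nearest control peak it does not overlap (x axis in bp on a log scale, y axis in percent of each class, touching peaks drawn at 1 bp). The curve of the 5286 unmatched peaks is lower and wider than that of the 59977 matched peaks, with medians of 1805 and 1641 bp.

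Set against the stretches that hold no control peak, unmatched peaks sat somewhat nearer to control peaks than the bases of these stretches did. The midpoints of the unmatched peaks had a median distance of 1905 bp to the edge of a control peak. All interior bases outside control peaks that could be the midpoint of the shortest interval had a median distance of 2370 bp. Their upper quartile was 6063 bp against 4290 bp for the midpoints of unmatched peaks. Bases at which no peak could have been called, if any, were not left out of this reference. The gap between control peaks that held an unmatched peak had a median length of 8843 bp over the 5286 peaks. A gap was counted once for each unmatched peak in it. All interior gaps between control peaks had a median of 2696 bp, or 11271 bp when weighted by length. Most gaps with an unmatched peak held a single one: 4700 of 4962 gaps held 1 unmatched peak, 225 held 2, and the fullest held 12. The nearest control peak lay on the left of 2576 and on the right of 2709 unmatched peaks, so there was no preferred side in position along the chromosome. Control peaks within 1 kb flanked 326 unmatched peaks on both sides.

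The control peaks nearest to unmatched peaks were slightly narrower and weaker than those next to matched peaks. By median they were 366 bp wide with a fold of 3.58, the control peaks next to matched peaks, which these do not overlap, 402 bp with 3.87, and all 201949 interior control peaks 391 bp with 3.79. Another tet2/3 morpholino peak overlapped 31.5% (30.3 to 32.8) of those nearest to unmatched peaks, 32.9% (32.5 to 33.3) of those next to matched peaks and 28.5% (28.3 to 28.7) of all. Beside unmatched and matched peaks, a control peak was counted once for each tet2/3 morpholino peak it lay next to. It can thus count more than once, which the intervals do not cover. Among unmatched peaks under 200 bp from their nearest control peak, that control peak was itself overlapped in 49.0%, whereas it was in 25% for unmatched peaks 5 to 10 kb away.

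The limit of 1 shared base separates few peaks. The intervals of 3 unmatched peaks touched a control peak with no base between, and 5 matched peaks shared 1 bp with one. The touching peaks lay at chromosome 2:21807042-21807190, chromosome 24:17082691-17082823 and chromosome 4:6786749-6787262, and their folds were 2.57, 3.45 and 3.37 in that order. The 5 peaks that shared 1 bp had folds of 2.99 to 3.77. At the other limit, the unmatched peak nearest to 2 Mb on the inside was chromosome 11:43482193-43482434 (fold 4.56), and the nearest on the outside was chromosome 5:1999823-1999974 (fold 3.62).

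Unmatched peaks were narrow. Their median width was 174 bp (172 to 176), with quartiles of 147 and 224 bp, and that of matched peaks was 295 bp (293 to 297), with quartiles of 206 and 439 bp. The median was lower in unmatched peaks on 25 of 25 chromosomes. A wide interval meets a control peak more readily, so width is tied to the rule and the difference is a description. The unmatched share was 24.2% (23.1 to 25.3) among peaks under 150 bp, 6.11% (5.72 to 6.52) from 222 to under 300 bp and 0.301% (0.117 to 0.771) at 1000 bp or more.

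**Figure D2:**
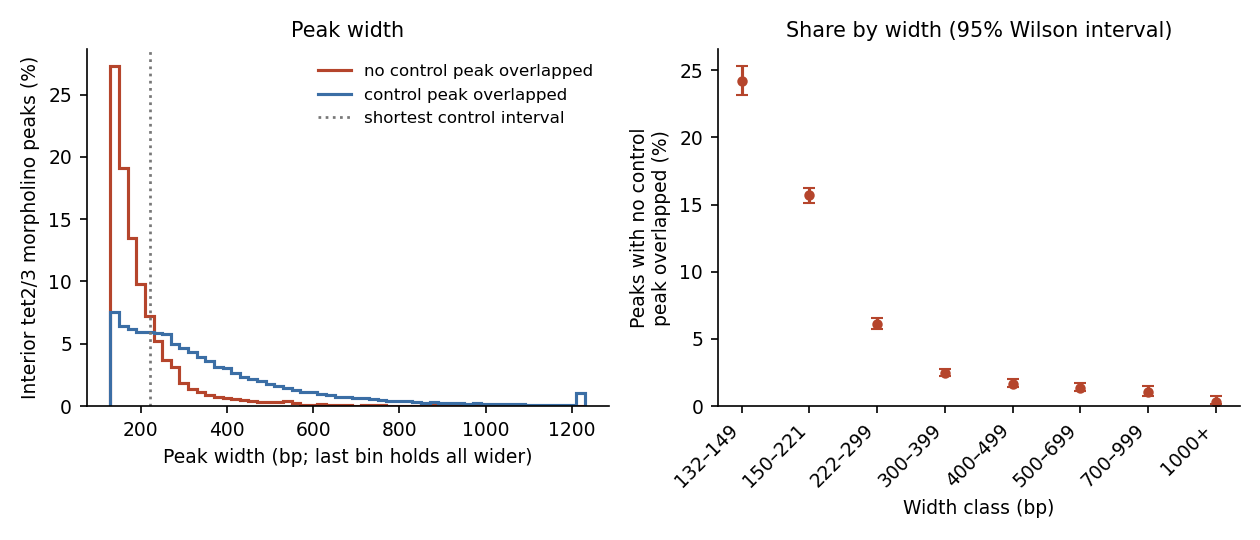
Left, widths of interior tet2/3 morpholino peaks in bp as percent of each class, unmatched and matched, with a dotted line at the shortest control interval (222 bp). Right, the unmatched share in each width class with its 95% Wilson interval, which falls from 24.2% in the narrowest class to 0.301% in the widest.

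The lists differ in the shortest interval they hold, which is 132 bp in the tet2/3 morpholino list and 222 bp in the control list. Of the unmatched peaks, 3918 of 5286 were narrower than any control interval. Matched peaks also had such narrow intervals: 7.53% were under 150 bp and 22.2% from 150 to under 222 bp. In unmatched peaks these shares were 27.3% and 46.8%. Among the 43530 interior peaks of at least 222 bp, 1368 were unmatched, or 3.14% (2.98 to 3.31), and their median distance to a control peak was 1670 bp. Whether the narrow intervals lie where the control pull-down had enrichment too short to be listed was not tested.

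By median, unmatched peaks were weaker than matched peaks. Their median fold enrichment, the value the authors' peak caller gave for the pileup at the summit over the local background, was 3.74, with quartiles of 3.32 and 4.24. Matched peaks had a median of 4.10, with quartiles of 3.44 and 5.10. The median −log10 q was 3.75 in unmatched and 5.00 in matched peaks. At the summit the fragments counted had a median of 31 in unmatched and 36 in matched peaks, before the scaling that the caller applied. The unmatched share was 9.12% (8.48 to 9.81) where the fold was 2 to 3 and 11.4% (11 to 11.8) where it was 3 to 4. The share was 3.14% (2.79 to 3.54) at a fold of 5 to 6 and 0.266% (0.114 to 0.620) from 8 upwards, where 5 of 1882 peaks were unmatched.

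The share was also counted by width and fold together. Among peaks under 222 bp the unmatched share was 13.8% (12.7 to 15) below a fold of 3, 18.2% (17.5 to 18.8) between 3 and 4, 20.8% (19.7 to 21.8) between 4 and 6, and 9.65% (6.46 to 14.2) from 6 upwards. In these narrow peaks the share thus rose with fold up to 6 and was lower only above that. Among peaks of 300 bp or more the share was 2.54% (1.90 to 3.38) below a fold of 3 and 0.731% (0.557 to 0.960) at 6 or more. In every one of the 4 fold classes the share was lower among peaks of 300 bp or more than among those under 222 bp.

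Local background, the fragment pileup the caller took as its baseline, was low at most unmatched peaks and high at a few. In units of the scaled pull-down its median was 3.00 at unmatched and 3.17 at matched peaks, and it was lower at unmatched peaks on 25 of 25 chromosomes. The list's lowest background, 2.81, was the baseline of 33.3% of unmatched and 20.5% of matched peaks. The unmatched share was 12.5% (12 to 13.1) at that lowest level, 5.04% (4.49 to 5.65) at a background of 4.5 to 6 and 20.7% (13.6 to 30.0) at 12 or more. The last value rests on 19 of 92 peaks, and 7 of these 19 lay in a single stretch of chromosome 8. Its interval treats the peaks as independent. Background at the same places in the control libraries is known only where a control peak was called.

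**Figure D3:**
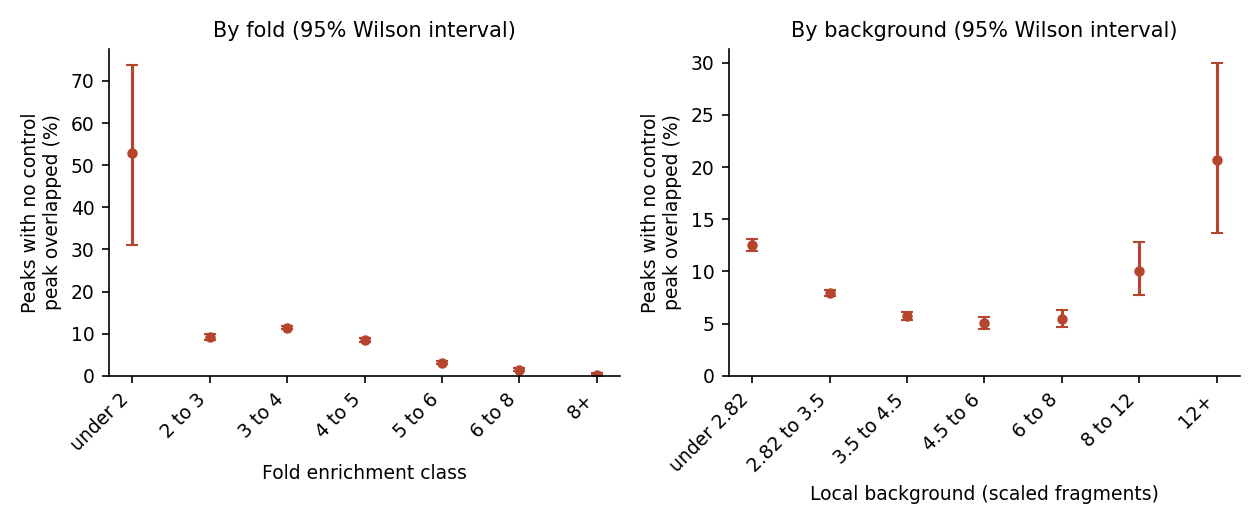
The unmatched share of interior tet2/3 morpholino peaks by fold enrichment (left) and by solved local background in scaled fragments (right), with 95% Wilson intervals. The share is 11.4% at a fold of 3 to 4 and 0.266% at 8 or more. By background it is 12.5% at the lowest level, 5.04% at 4.5 to 6 and 20.7% at 12 or more. The point under a fold of 2 rests on 9 of 17 peaks, and the point at a background of 12 or more on 19 of 92.

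The pileup at the summit was a median of 4.62 times the local background at unmatched peaks and 5.05 times at matched peaks. At the lowest background of the list, 2.81, the medians were 5.05 at unmatched and 5.72 at matched peaks, and no listed peak lay below 3.37 times background. The pileup of the control library at the unmatched peaks is not in the list, and control enrichment there was not analysed here.

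The strength of unmatched peaks ran on into a thin upper tail. The −log10 q was 5 to 7 in 872 of them, or 7.17% of the 12167 interior peaks at that level. It was 7 to 10 in 276 (3.14% of 8778) and at least 10 in 138 (1.45% of 9550). These shares lay below the 8.10% over all interior peaks. By median these 138 had a fold of 6.24 and lay 2557 bp from a control peak. Ranked by fold, the first lay at chromosome 6:57830964-57831359, with a fold of 8.72 from 71 fragments. It had no control peak for 11676 bp to its left and 9344 bp to its right. The second spanned 925 bp at chromosome 15:45695059-45695983, where 67 fragments gave a fold of 8.58. The third spanned 769 bp at chromosome 20:52980684-52981452, where 92 fragments gave 8.49. Its −log10 q of 24.4 was the highest among unmatched peaks. These 3 summits held more than the median of 31 fragments, which their choice by fold favours. The fourth was chromosome 15:45160411-45160668 (fold 8.37), which lay 11369 bp from a control peak. The fifth was chromosome 2:56107985-56108946 (fold 8.21), which had a control peak 123 bp to its left and another 251 bp to its right.

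Wide unmatched peaks were rare. At 500 bp or more there were 131, with a median fold of 4.86. The unmatched share was 1.38% from 500 to under 700 bp, 1.06% from 700 to under 1000 bp and 0.301% at 1000 bp or more. Of the 131, 42 had a control peak within 1 kb, as did 1874 (35.5%) of all 5286 unmatched peaks. The widest, at chromosome 2:49207327-49208420 and chromosome 20:16961325-16962418, both spanned 1094 bp, with folds of 5.11 and 4.73. The next spanned 1062 bp at chromosome 11:43284284-43285345, 1009 bp at chromosome 3:7733763-7734771 and 998 bp at chromosome 7:19918956-19919953. Their distances to a control peak, from 407 to 3435 bp over these 5, were in the range of the narrow ones.

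The most remote unmatched peaks were narrow, with widths of 136 to 213 bp and folds of 3.37 to 4.73. The farthest, at chromosome 6:17182957-17183092, was 136 bp wide, had a fold of 3.68 and lay 101343 bp from the nearest control peak. The next was at chromosome 11:12875727-12875898, with a distance of 77665 bp and a fold of 3.77. The third, chromosome 22:8172695-8172907, had a fold of 4.73 at 77337 bp from a control peak. No control peak lay within 50 kb of them. The fourth, at chromosome 11:11359888-11360037, lay 72917 bp from a control peak with a fold of 3.37, and the fifth, at chromosome 4:29438434-29438600, lay 67308 bp from one with a fold of 4.48. The other tet2/3 morpholino peaks were far from most of these too: the nearest lay 13386 bp from the fourth and 80464 to 243837 bp from the rest.

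Unmatched peaks lay in sparser surroundings. Within 50 kb to either side they had a median of 17 control peaks, with quartiles of 10 and 24, and matched peaks had 25, with quartiles of 17 and 33, the control peaks they overlap left out. Other tet2/3 morpholino peaks in the same span had a median of 5 around unmatched and 9 around matched peaks. The unmatched share was 24.2% (22.0 to 26.5) where 3 to 5 control peaks lay within 50 kb and 3.16% (2.93 to 3.41) where 31 or more did. Where control peaks are dense, a tet2/3 morpholino peak meets one more readily, so this gradient is tied to the rule.

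Unmatched peaks neighboured each other more often than matched peaks did. The nearest other peak of the tet2/3 morpholino list was itself unmatched for 15.7% (14.7 to 16.7) of unmatched and 7.34% (7.14 to 7.55) of matched peaks, and the share was higher for unmatched peaks on 25 of 25 chromosomes. With the nearest other peak under 500 bp away, the shares were 30.9% (27.3 to 34.7) for unmatched and 5.62% (5.12 to 6.18) for matched peaks. At 10 kb or more they were 15.8% (14.3 to 17.6) and 12.2% (11.6 to 12.8). Neighbouring peaks that lie in the same gap between control peaks are all unmatched, so the difference is tied to the rule. Neighbours also share their local control density, so the comparison was repeated within classes of it. These classes leave out the control peaks that matched peaks overlap, and they do not remove the tie to the rule. With 6 to 10 control peaks within 50 kb the shares were 22.4% (19.9 to 25.1) for unmatched and 18.3% (17.2 to 19.5) for matched peaks, and with 21 to 30 they were 11.1% (9.48 to 13.0) and 5.64% (5.32 to 5.98). The difference kept its direction in all 6 classes and was smaller, as a ratio, where control peaks were few. Neighbouring peaks are not independent, and no test was made.

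Most unmatched peaks were still not part of a run of unmatched peaks. A run was taken as consecutive rows of the tet2/3 morpholino list that are all unmatched and at most 20 kb apart. By that definition 4486 unmatched peaks were single, and 800 lay in 364 runs of 2 or more. There were 317 runs of 2, 35 of 3, and 12 of 4 or more, which held 61 peaks. A matched peak in between ends a run, so a single peak can have other peaks nearby. Another tet2/3 morpholino peak lay within 20 kb of 79.7% of unmatched and 90.8% of matched peaks. No other unmatched peak lay within 50 kb of 57.6% of unmatched and 61.6% of matched peaks.

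The longest run was evenly spaced. It held 12 unmatched peaks in 31096 bp at chromosome 20:26138583-26169678, in a single gap of the control list. Their widths were 132 to 207 bp, their folds 3.86 to 5.98 and their summit counts 29 to 46 fragments, with a background of 2.81 to 3.22. Of the 11 steps from one start to the next, 10 measured 2564 to 2603 bp, with a mean of 2582 ± 14.5 bp (SD over 10 steps). The remaining step of 5096 bp is 1.97 times that mean. A further 4 unmatched peaks followed at chromosome 20:26184572-26192451, 14893 bp past the end of the run, with steps of 2563 to 2591 bp and folds of 4.11 to 4.48.

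**Figure D4:**
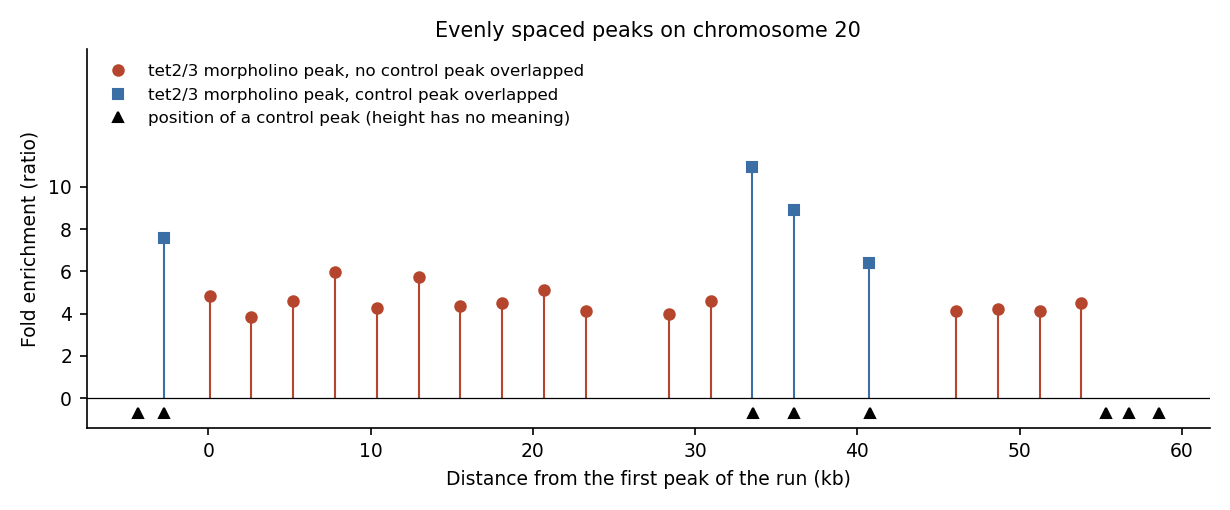
Peaks around the longest run on chromosome 20, by distance from its first peak in kb and by fold enrichment as a ratio. Circles are unmatched and squares matched tet2/3 morpholino peaks, and triangles mark only the positions of control peaks. Steps are 2564 to 2603 bp within the run of 12 unmatched peaks, apart from 1 step of 5096 bp, and 2563 to 2591 bp within the run of 4, which starts after a gap of 14893 bp.

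Between these runs lay matched peaks with folds of 10.9, 8.90 and 6.37. The control peaks that they overlapped had folds of 2.70, 2.51 and 1.95, on control backgrounds of 10.1, 26.1 and 44.7 fragments, all above the lowest of 7.53. These folds come from different libraries, each with its own background, and sequencing depth was not compared here. No comparison of their size between the lists is therefore made. Even spacing was looked for after the run had been seen. Among 65163 overlapping sets of 5 neighbouring interior peaks, 12 had steps of at least 300 bp with a coefficient of variation below 3%. In 6 of these 12 it was below 1%. All 6 lie in this run and share peaks with each other, so they are not separate cases. Whether the region is a tandem repeat was not tested, as no genome sequence of the build was used.

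The other long runs were irregular. The second held 7 unmatched peaks at chromosome 6:57821674-57838140, with folds of 3.14 to 8.72 and steps of 267 to 5374 bp. It contains the unmatched peak with the highest fold. The third held 6 at chromosome 15:17682632-17710301, with folds of 4.36 to 5.98, widths of 233 to 420 bp and steps of 538 to 8526 bp. No control peak lay inside either run. The peaks of the third run were all wider than the shortest control interval.

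Unmatched peaks were found on all 25 chromosomes at a fairly even density. There were 4.37 ± 0.559 per Mb of interior (SD over 25 chromosomes), from 3.02 on chromosome 22 to 5.24 on chromosome 20. Matched peaks had 50.5 ± 7.00 per Mb, from 40.8 on chromosome 2 to 71.0 on the first part of chromosome 4. The unmatched share averaged 8.06 ± 1.20% over chromosomes. It was lowest on chromosome 4 before 30 Mb, at 4.47% (3.66 to 5.44), and on chromosome 22, at 5.70% (4.73 to 6.85). It was highest on chromosome 5, at 9.81% (8.88 to 10.8), with chromosomes 20, 1 and 6 close by at 9.66%, 9.66% and 9.48%. The interval of the share lay above 8.10% on 4 chromosomes (1, 5, 6 and 20) and below it on 4 (4, 7, 18 and 22).

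**Figure D5:**
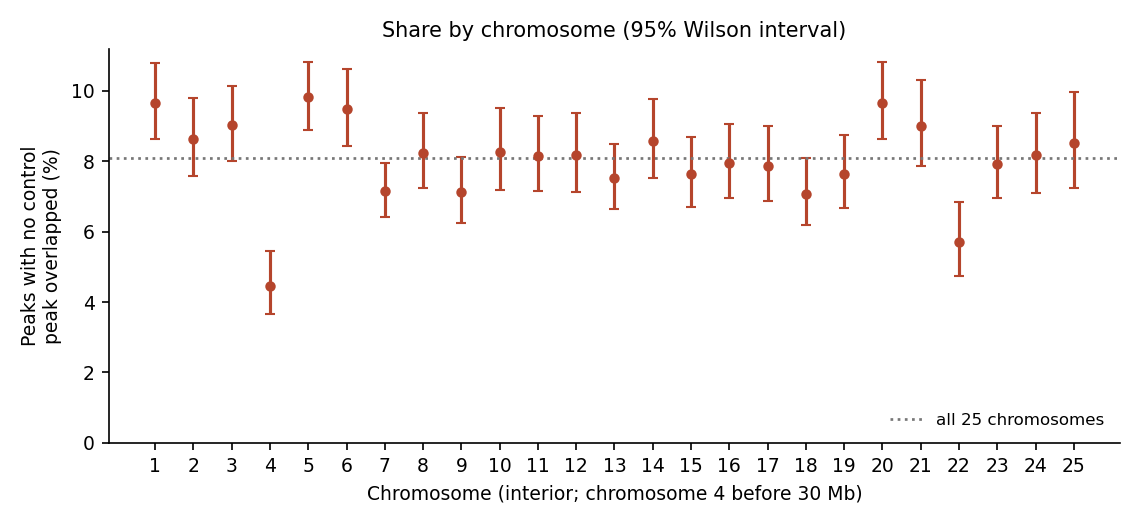
The unmatched share of interior tet2/3 morpholino peaks on each chromosome, with 95% Wilson intervals and a dotted line at the share over all 25 chromosomes (8.10%). Chromosomes 4 and 22 lie lowest, at 4.47% and 5.70%, and chromosome 5 highest, at 9.81%.

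Chromosome 4 before 30 Mb had the densest control peaks, at 221.8 per Mb, against a mean of 170.1 ± 16.6 per Mb (SD over 25 chromosomes), and 3.32 unmatched peaks per Mb. Over the 25 chromosomes the unmatched share was lower where control peaks were denser, with Pearson's r = −0.70 and Spearman's rho = −0.66, and r = −0.49 and rho = −0.61 over the 24 without chromosome 4. The number of unmatched peaks per Mb did not fall in this way. Against control density it had r = −0.04 and rho = 0.18 over the 25 chromosomes, and r = 0.31 and rho = 0.32 over the 24. These values are descriptions, since the chromosomes share the same libraries and dense control peaks are met more readily. What sets the share of a chromosome was not tested. Chromosome 22, with the second lowest share, had a control density of 163.7 per Mb. The median width of unmatched peaks varied little, from 166 bp on chromosome 14 to 183 bp on chromosome 2. Their median distance to a control peak varied more, from 1279 bp on chromosome 19 to 2297 bp on chromosome 2.

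Inside the 2 Mb limit the unmatched share still changed with the distance from a chromosome end. It was 11.7% (10.7 to 12.8) at 2 to 3 Mb, 9.77% (9.03 to 10.6) at 3 to 5 Mb and 8.00% (7.55 to 8.49) at 5 to 10 Mb. Further in, it was 8.43% (7.93 to 8.95) at 10 to 15 Mb and 7.26% (6.87 to 7.66) at 20 to 30 Mb.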

How the data were processed

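5hmC pull-down (hMeDIP) libraries of 2 groups, 1 each, were compared through the peak lists the authors deposited. Bowtie2 2.2.6, MACS2 2.2.7.1, deepTools and the builds GRCz11 and danRer11 are named in the submitters' processing notes; no settings are stated there. The deposited score is a whole number, 10 times the −log10 q-value with its decimals dropped, to within 1 unit in all peaks of both lists. The fold that the authors deposited is a ratio, summit pileup plus 1 over local background plus 1. The caller's −log10 p-value and −log10 q-value stand beside it in the deposited lists. Coordinates are 1-based.

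Peaks were matched at 1 shared bp (Python 3.11.15, pandas 2.3.3, numpy 2.4.6, scipy 1.17.1; the number of members was checked with bedtools 2.31.1). Distances are bases between intervals. Intervals are 95% Wilson or order-statistic ones. Pileup and background were solved from deposited fold and p-value under a Poisson model, with the tet2/3 morpholino pileup scaled by 0.474. The solution met the deposited values to a relative 0.0001 in 100% of peaks, and the method was tested on simulated data. Named peaks are the 5 with the highest fold, the 5 farthest from a control peak, the 5 widest and the 3 longest runs. The second run on chromosome 20 and all windows and regions in the closing section were chosen after their values were seen. The members and rules were chosen with earlier results of these data known. Peaks on scaffolds were not analysed here.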

Additional observations from a re-analysis of the deposited data

How the results depend on the processing

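The alternatives were planned, except the minimum width and the omission of long runs, which were chosen after seeing the data. The unmatched share of 8.10% was 6.08% with −log10 q held to 5 or more on both lists, 4.22% with that limit on the tet2/3 morpholino list alone, 51.6% where 50% of both intervals had to overlap, 6.42% where a control peak within 500 bp counted as a match and 9.44% by summit. It was 7.70% at 5 Mb from the ends, 9.30% with no limit there and 3.14% among peaks of at least 222 bp. By width it was 24.2%, 15.7%, 6.11% and 1.79% (under 150, under 222, under 300, and 300 bp or more), and by fold 9.23%, 11.4%, 6.74% and 1.15% (under 3, 3 to 4, 4 to 6, 6 or more). In the order of the first 8 alternatives, the median distance of 1805 bp became 2497, 2092, 0, 2518, 1308, 1933, 1395 and 1670 bp. The rule of 50% overlap counts partly overlapping peaks as unmatched and so gives 0 by construction, while the distance within 500 bp can only raise the median. The summit rule adds peaks that overlap a control peak away from their summit. Their distance was set to 0, so it can only lower the median. The median width of 174 bp became 217 and 194 bp under the q limits, 213 bp under 50% overlap, 181 bp by summit, 179 bp with no limit at the ends and 276.5 bp among peaks of at least 222 bp; matched peaks stayed wider, at 399.5, 398, 376, 295, 301 and 368 bp. The share of unmatched peaks whose nearest other peak was unmatched, 15.7% against 7.34% for matched peaks, became 17.3% against 5.23% and 12.5% against 3.69% under the q limits, 56.6% against 48.8% under 50% overlap, 18.8% against 8.29% with no limit at the ends and 9.43% against 2.91% among peaks of at least 222 bp. Without runs of 4 or more it was 14.8%. The SD of the share over chromosomes, 1.20 points, became 1.25 and 0.863 under the q limits, 1.35 under 50% overlap, 1.24 with no limit at the ends and 0.659 among peaks of at least 222 bp; without chromosome 4 it was 0.964. The minimum width of 222 bp can only raise the median width. What causes the other shifts was not tested. No paired analysis was possible because there is only 1 pull-down in a group. The median unmatched peak rests on 31 fragments, and how depth affects the calls was not tested.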

Other observations

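The values below were picked after they had been seen and carry no test. Over the 1214 windows of 1 Mb in the interior, the unmatched peaks averaged 4.35 per window (median 4, SD 2.72), and 28 windows held none. The last window of most chromosomes was cut short by the limit at the ends, so it could hold fewer peaks. Windows with 10 or more numbered 44 and held 558 of the 5286 peaks. The highest count was 22, reached on chromosome 6 from 57 to 58 Mb, among 98 tet2/3 morpholino peaks (22.4%, 95% interval 15.3 to 31.7), and on chromosome 18 from 5 to 6 Mb, among 131 (16.8%, 11.4 to 24.1). The window on chromosome 6 holds the second longest run. The longest run lies in a window with 20 unmatched among 101 peaks (19.8%, 13.2 to 28.6). At the other end, chromosome 7 from 46 to 47 Mb held 197 tet2/3 morpholino and 341 control peaks, and 0 of the 197 were unmatched (0 to 1.91%).

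A stretch of chromosome 8 had several unmatched peaks on a high background. Of the 19 unmatched interior peaks with a background above 12, 7 lay at chromosome 8:34445658-34925009. A background above 12 was also found at 50 matched interior peaks. With a background of exactly 12 counted as well, 19 of 92 interior peaks were unmatched (20.7%). The background of these 7 was 24.0 to 32.0 and their fold 1.68 to 2.39. The wider region around them held 11 unmatched peaks in all, with backgrounds of 3.75 to 32.0 and folds of 1.68 to 4.52. In that region 12 of 30 control peaks also had a background above 30, with a highest value of 72.5. The median over interior control peaks was 8.43. Backgrounds above the usual level were thus present in the lists of both groups there.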
